A study of Mus musculus with 8 samples.

Results

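The E2F and DP transcription factors were followed through 6 h of Wnt activation in the embryonic mouse cochlea. They are 10 genes, E2f1 to E2f8 and the partner genes Tfdp1 and Tfdp2, taken by exact gene symbol from a table of 42775 genes. All 10 were expressed well above the minimum used for testing. The samples were wild-type Swiss Webster cochlear explants, cultured for 24 h from E12.5 (embryonic day 12.5) and labelled by their source as E14.0. In 4 of them, 10 µM CHIR99021 was added for 6 h. CHIR99021 inhibits the kinase GSK3, which lets β-catenin accumulate and so switches on Wnt target genes. The other 4, the controls, received the DMSO vehicle for as long. Replicates 1 and 3 of each group carry an F and replicates 2 and 4 an M in their titles. The sources used here do not say how many cochleas went into a library. A library holds the whole explant, with epithelium, mesenchyme, cartilage, neurons and glia together.

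E2F factors decide when the genes for DNA replication are transcribed. E2F1, E2F2 and E2F3 activate them, and are held in check by the retinoblastoma protein RB1 until cyclin-dependent kinases phosphorylate it. E2F4 and E2F5 mostly act as repressors with the related pocket proteins RBL1 and RBL2 in cells outside the cycle. E2F1 to E2F6 need a DP partner, the product of Tfdp1 or Tfdp2, to bind DNA firmly. E2F6 does not bind pocket proteins and belongs to a Polycomb-type repressor complex. E2F7 and E2F8 bind DNA without DP, repress the same genes late in S phase, and are themselves E2F targets. In the mouse cochlea, loss of Rb1 lets hair cells and supporting cells divide again, and the kinase inhibitor gene Cdkn1b marks the prosensory cells as they leave the cycle.

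Expression was measured as CPM, the reads of a gene per 1000000 reads that the authors assigned in that library. The assigned reads implied by the table numbered 64905007 to 75434130 per CHIR99021 library and 66483661 to 89269187 per control library, and the members had between 1435 and 14783 reads each. Fold changes are differences of log2(CPM + 1), CHIR99021 minus control, which slightly understate the change of low genes. They were tested with limma over the 14264 genes with a mean of at least 1 CPM. A gene passed at a Benjamini-Hochberg adjusted p under 0.05, and the p-values measure the spread between the 4 biological replicates of each group. The Wnt readouts Axin2 and Nkd1 answered the treatment. Axin2, which encodes a scaffold on which β-catenin is marked for destruction, averaged 266 ± 20.2 CPM in CHIR99021 and 87.8 ± 9.99 CPM in control (SD, n = 4 each). Nkd1, an inhibitor of Dishevelled, averaged 572 ± 43.1 CPM in CHIR99021 and 121 ± 16.5 CPM in control (SD, n = 4 each).

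Most E2F genes rose with CHIR99021, the activators E2f1 and E2f3 the furthest among them. Of the DP partner genes, Tfdp1 rose and Tfdp2 fell. By limma, 7 of the 10 members were higher (E2f1, E2f2, E2f3, E2f4, E2f6, E2f8 and Tfdp1) and 1 was lower (Tfdp2). E2f5 and E2f7 did not pass. Of all genes tested, 33.7% passed in either direction, with 12.3% higher and 21.4% lower. Under TMM scaling, which sets the bulk of genes equal between libraries, 17.1% were higher and 16.5% lower, and the same 8 members passed. In 7 members the CHIR99021 libraries did not overlap the controls, 6 of them higher and 1 lower. Of all genes tested this held for 33.3%, with 12.7% higher and 20.6% lower. The median log2 fold change of the members was 0.27, and that of all genes tested was -0.05. In a whole explant, more cells of a type that expresses a gene and more RNA per cell cannot be told apart.

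**Figure D1:**
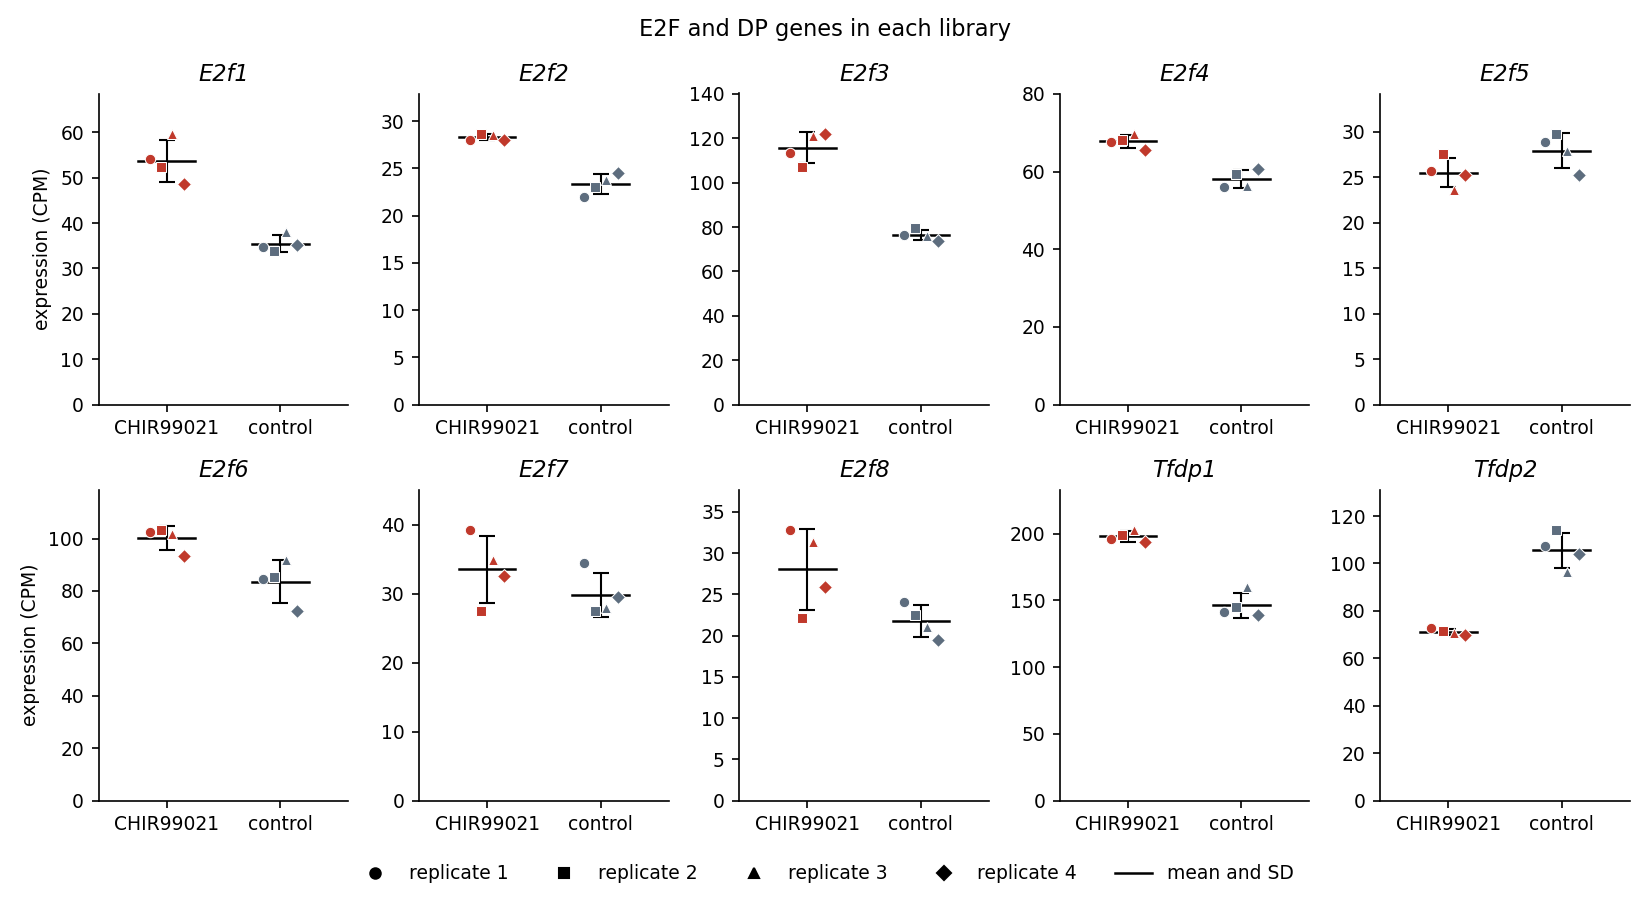
Expression in CPM (vertical axes, from 0) of the 10 E2F and DP genes in the 4 CHIR99021 libraries (left, red) and the 4 control libraries (right, grey), with replicate numbers as shapes and the mean with SD in black. The groups stand apart in 7 panels, and overlap in those of E2f5, E2f7 and E2f8. In CHIR99021, replicate 2 is the lowest library for E2f7 (27.5 CPM) and E2f8 (22.1 CPM).

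Among the members that were higher, the promoter windows of E2f2, E2f3, E2f8 and Tfdp1 hold short E2F motifs, as does that of E2f7, which did not pass. All but that of E2f2 are shown, because E2F genes are known to be transcribed by E2F factors themselves. The site was searched in the form TTCCCGC, and also in the common form TTGGCGC, with a further search for the form TTCGCGC, and lastly for the form TTGCCGC. Both strands were searched, from 250 bases before to 50 after each start in RefSeq (GRCm38.p6). The variant TTGGCGC shares its first bases with the site of NFI factors. The table held a window for 8 of the 10 members, without E2f4 and E2f5, and 5 of the 8 had at least 1 such string (E2f2, E2f3, E2f7, E2f8 and Tfdp1). Over all 27025 genes with a window, 10.9% had one. The windows of E2f1 and Tfdp2 lie around RefSeq starts inside the gene as GENCODE draws it, by 466 bases and by at least 62430 bases. The GENCODE starts of E2f1 and Tfdp2 were therefore not searched. The stretches below run 5′ to 3′ on the strand of the gene, with the E2F strings, in either direction, in capitals. That of E2f7 covers chr10:110745209-110745358 on the plus strand. That of E2f3 covers chr13:29986039-29986123 on the minus strand and crosses the start. That of E2f8 covers chr7:48881597-48881726 on the minus strand, and that of Tfdp1 covers chr8:13338691-13338750 on the plus strand.
E2f7: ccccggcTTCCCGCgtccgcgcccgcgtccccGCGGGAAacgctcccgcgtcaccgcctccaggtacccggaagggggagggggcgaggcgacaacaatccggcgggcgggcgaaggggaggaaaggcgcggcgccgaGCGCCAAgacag
E2f3: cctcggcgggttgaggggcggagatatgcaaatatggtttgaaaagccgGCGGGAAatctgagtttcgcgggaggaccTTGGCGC
E2f8: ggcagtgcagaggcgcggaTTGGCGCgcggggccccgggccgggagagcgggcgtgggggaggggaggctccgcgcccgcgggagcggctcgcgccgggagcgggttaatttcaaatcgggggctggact
Tfdp1: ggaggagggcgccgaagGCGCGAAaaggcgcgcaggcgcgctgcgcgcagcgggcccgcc
The E2f7 stretch holds 3 strings, at 223, 198 and 92 bases before the start, of which the first pair are TTCCCGC facing opposite ways. E2f3 holds TTCCCGC read on the other strand 11 bases before the start and TTGGCGC just inside the transcript. E2f8 and Tfdp1 hold 1 each, at 111 and 43 bases before the start. E2f2, not printed, holds TTGGCGC inside the transcript, from base 41 counted from the RefSeq start. A string is a description of these letters and not a measurement of binding.

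The same windows were searched for CTTTGAT and CTTTGTT, the strings that TCF/LEF factors, the DNA-binding partners of β-catenin, prefer. CTTTGTT is also read by SOX factors. Only Tfdp2 among the 8 members with a window had at least 1 such string, against 10.6% of all genes with a window. The Tfdp2 stretch, on the plus strand at chr9:96258585-96258624, has the string in capitals, 102 bases before a RefSeq start that lies 62430 bases inside the gene as GENCODE draws it.
Tfdp2: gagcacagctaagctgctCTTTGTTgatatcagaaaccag
No such string was found in the window of E2f1, whose RefSeq start lies 466 bases inside the GENCODE gene, nor in those of the other members with a window.

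The activators rose, E2f1 and E2f3 by about the same factor and E2f2 by less. E2f1 (ENSMUSG00000027490, chr2:154559407-154569892, minus strand, GRCm38) encodes the activator that can also drive apoptosis genes. Its level in replicates 1 to 4 was 54.0, 52.2, 59.6 and 48.7 CPM in CHIR99021, against 34.7, 33.8, 38.0 and 35.2 CPM in control. Every CHIR99021 library was above every control, by at least 10.7 CPM. The mean was 53.6 ± 4.54 CPM in CHIR99021 and 35.4 ± 1.82 CPM in control (SD, n = 4 each), 51.4% higher. The log2 fold change was 0.58 with a standard error of 0.072 (limma adjusted p = 0.000165). That is a larger change, in either direction, than 90.8% of the genes tested showed.

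E2f3 (ENSMUSG00000016477, chr13:29906575-29986063, minus strand) encodes an activator needed for S phase entry in mouse fibroblasts. It had 113, 107, 121 and 122 CPM in CHIR99021 replicates 1 to 4, against 76.6, 79.4, 75.9 and 73.7 CPM in control. The control libraries lay close together and the lowest CHIR99021 library, replicate 2, was 27.6 CPM above the highest of them. This was a log2 fold change of 0.59 with a standard error of 0.057 (limma adjusted p = 3.2e-05). E2f1 and E2f3 were the 2 members that passed with a rise of more than 0.5 on this scale. Of all genes tested, 2.95% passed with such a rise.

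E2f2 (ENSMUSG00000018983, chr4:136172394-136196057, plus strand) encodes the other activator. The CHIR99021 libraries had 28.1, 28.6, 28.6 and 28.1 CPM, nearly the same value in each, against 22.0, 23.1, 23.8 and 24.5 CPM in control. The groups did not overlap. On the log2 scale this was a change of 0.27 with a standard error of 0.063 (limma adjusted p = 0.00781). Within replicates 1 and 4 alone E2f2 differed by 0.26 (limma adjusted p = 0.0962), and within replicates 2 and 3 alone by 0.28 (limma adjusted p = 0.143). The size was nearly unchanged with 2 libraries a group, and the call was lost.

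The pocket protein partners of the repressor class split, with E2f4 higher and E2f5 not past the test. E2f4 (ENSMUSG00000014859, chr8:105297663-105305370, plus strand) encodes the main E2F of cells outside the cycle. It had 67.7, 68.2, 69.7 and 65.5 CPM in CHIR99021, against 56.1, 59.3, 56.4 and 60.7 CPM in control. Both groups were tight and did not overlap, with a gap of 4.78 CPM. The log2 fold change was 0.22 with a standard error of 0.052 (limma adjusted p = 0.00845), and only 57.4% of the genes tested changed by less. Like E2f2, it kept its size but lost its call within replicates 1 and 4 (0.19, limma adjusted p = 0.135) and within replicates 2 and 3 (0.25, limma adjusted p = 0.0926).

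E2f5 (ENSMUSG00000027552, chr3:14578641-14606309, plus strand) encodes the other repressor of this class. Its CHIR99021 libraries had 25.7, 27.6, 23.7 and 25.3 CPM, against 28.9, 29.8, 27.9 and 25.2 CPM in control. The groups overlapped. This was a log2 fold change of -0.12 with a 95% confidence interval of -0.29 to 0.04 (limma adjusted p = 0.233). Under TMM scaling it was -0.07 and did not pass either. E2f5 shares 85 exon bases with the antisense gene 1810022K09Rik, which averaged 34.2 CPM. The library kit marks strand, but whether the counting used it is not given in the sources used here, so some reads may belong to either gene.

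E2f6 (ENSMUSG00000057469, chr12:16810963-16839742, plus strand) encodes the E2F that works without pocket proteins. It had 102, 103, 102 and 93.4 CPM in CHIR99021, against 84.5, 85.3, 91.9 and 72.4 CPM in control. Replicate 4 was the lowest library of both groups. The groups did not overlap, but the gap was only 1.49 CPM, between CHIR99021 replicate 4 and control replicate 3. On the log2 scale this was a change of 0.26 with a standard error of 0.073 (limma adjusted p = 0.0175). Within replicates 2 and 3 alone it was 0.21 (limma adjusted p = 0.128), and E2f6 no longer passed.

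Relative to their level, the atypical repressors varied the most between the CHIR99021 libraries. E2f8 (ENSMUSG00000046179, chr7:48866429-48881596, minus strand) had 32.8, 22.1, 31.3 and 25.9 CPM in CHIR99021, against 24.1, 22.4, 21.0 and 19.5 CPM in control. CHIR99021 replicate 2 lay inside the control range and the other CHIR99021 libraries above it. The log2 fold change was 0.34 with a standard error of 0.12 (limma adjusted p = 0.0489), just inside the threshold. The call was lost when any of control replicates 2, 3 and 4 or CHIR99021 replicates 1, 3 and 4 was left out, with adjusted p from limma of 0.0642 to 0.132. It was also lost with no filter on low values (limma adjusted p = 0.121). Without CHIR99021 replicate 2 the log2 fold change was 0.44 (limma adjusted p = 0.0089). E2f8 shares 973 exon bases with the antisense transcript Gm2788, which averaged 0.981 CPM.

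E2f7 (ENSMUSG00000020185, chr10:110745439-110787384, plus strand) had 39.2, 27.5, 34.9 and 32.6 CPM in CHIR99021, against 34.4, 27.4, 27.9 and 29.4 CPM in control. Replicate 1 was the highest and replicate 2 the lowest library of each group, and the groups overlapped. This was a log2 fold change of 0.16 with a 95% confidence interval of -0.08 to 0.40 (limma adjusted p = 0.284). It was 0.08 without CHIR99021 replicate 1 and 0.25 without CHIR99021 replicate 2, and did not pass in either case (limma adjusted p = 0.595 and 0.0760). Both atypical genes were low in CHIR99021 replicate 2, and their ratio, E2f8 to E2f7, was 0.796 to 0.897 in CHIR99021 and 0.661 to 0.818 in control. These ranges overlapped.

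The DP partner genes moved in opposite directions. Tfdp1 (ENSMUSG00000038482, chr8:13338751-13378448, plus strand) encodes DP1, the usual partner in dividing cells. It had 196, 199, 203 and 194 CPM in CHIR99021, against 141, 145, 160 and 139 CPM in control. The highest control, replicate 3, was 33.8 CPM below the lowest CHIR99021 library. On the log2 scale this was a change of 0.43 with a standard error of 0.055 (limma adjusted p = 0.000191).

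Tfdp2 (ENSMUSG00000032411, chr9:96196275-96323646, plus strand) encodes DP2. The CHIR99021 libraries had 72.9, 71.6, 70.7 and 69.8 CPM, against 107, 114, 96.6 and 104 CPM in control. It was the only member that fell, and every CHIR99021 library lay at least 23.6 CPM below every control. The log2 fold change was -0.56 with a standard error of 0.058 (limma adjusted p = 5.6e-05). Of all genes tested, 8.91% passed with a fall of more than 0.5.

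**Figure D2:**
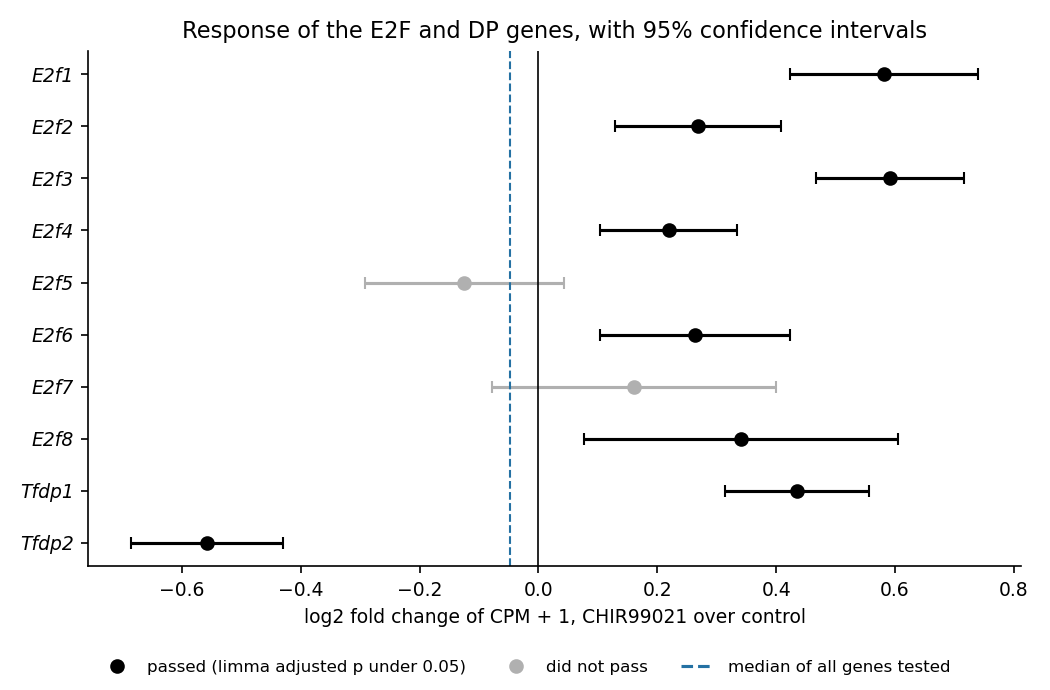
Log2 fold change of CPM + 1, CHIR99021 over control (horizontal axis), for each member, with 95% confidence intervals from limma. Black members passed and grey ones did not. The dashed line is the median of all genes tested (-0.05). The intervals of E2f5 and E2f7 include 0, and Tfdp2 lies at -0.56.

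Within a library, the balance between the partner genes shifted more than their sum. The ratio of Tfdp1 to Tfdp2 was 2.69, 2.78, 2.87 and 2.78 in CHIR99021 replicates 1 to 4, against 1.32, 1.27, 1.66 and 1.33 in control. The mean ratio was 2.78 ± 0.074 in CHIR99021 and 1.40 ± 0.177 in control (SD, n = 4 each). Their summed level was 269 ± 4.09 CPM in CHIR99021 and 252 ± 7.45 CPM in control (SD, n = 4 each). The ratios of CPM are not corrected for gene length, so they show the shift between groups and not which gene is more abundant. The sum of the activators E2f1, E2f2 and E2f3 to that of the repressors E2f4 and E2f5 was 1.96 to 2.24 in CHIR99021 and 1.53 to 1.63 in control, without overlap. The activators summed to 198 ± 8.80 CPM in CHIR99021 and 135 ± 2.22 CPM in control (SD, n = 4 each). E2f4 and E2f5 summed to 93.3 ± 2.05 CPM in CHIR99021 and 86.1 ± 2.11 CPM in control (SD, n = 4 each). The other repressor genes, E2f6, E2f7 and E2f8, are outside these sums.

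**Figure D3:**
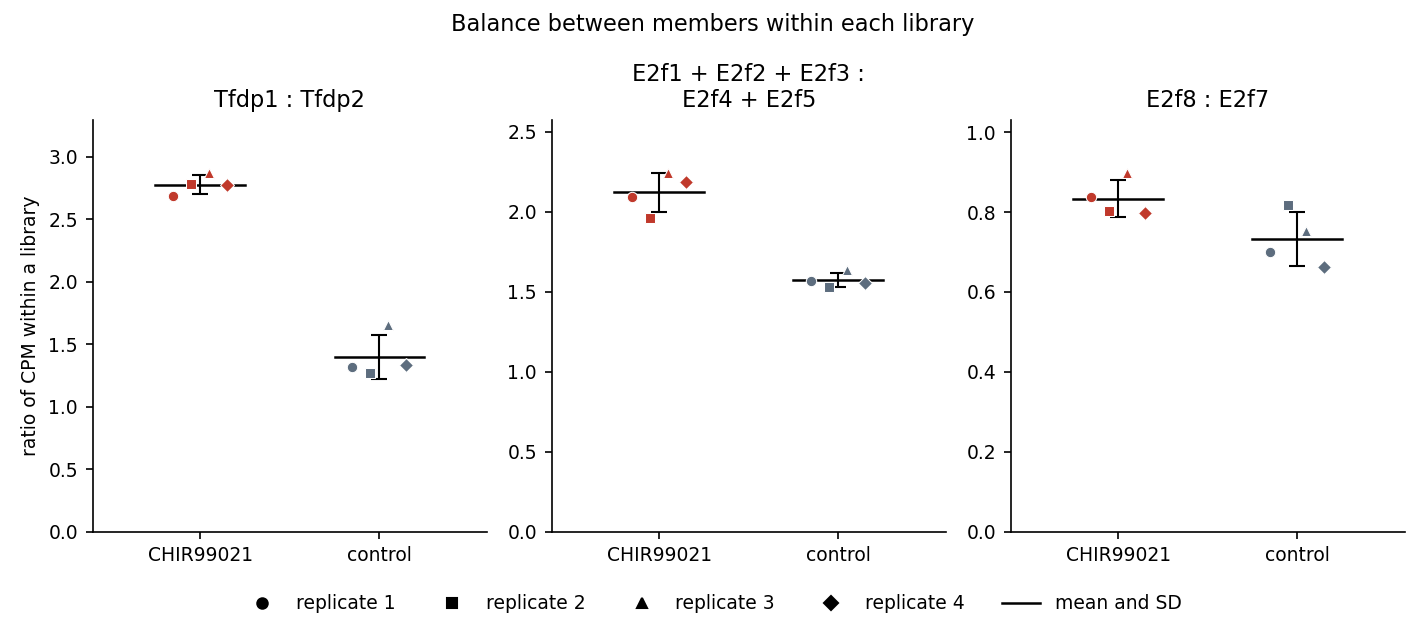
Ratios of CPM within each library (vertical axes, from 0) in the 4 CHIR99021 libraries (left, red) and the 4 control libraries (right, grey), with the mean and SD in black. Tfdp1 to Tfdp2 is 2.69 to 2.87 in CHIR99021 and 1.27 to 1.66 in control. The ratio of E2f1, E2f2 and E2f3 to E2f4 and E2f5 does not overlap between groups, and E2f8 to E2f7 does.

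Per kilobase of exon, Tfdp1 was the most abundant member in both groups, at 53.9 CPM per kb in CHIR99021 and 39.9 CPM per kb in control. E2f4 came next, at 27.6 CPM per kb in CHIR99021 and 23.7 CPM per kb in control. E2f3 held rank 3 in CHIR99021 (21.3 CPM per kb) and rank 5 in control (14.1 CPM per kb). In CHIR99021, E2f6 and E2f1 overlapped, as did E2f1 and E2f5, and lower down E2f2 and E2f8, and E2f8 and Tfdp2. In control, E2f5, E2f6 and E2f3 overlapped their neighbours in the order, as did E2f8 and E2f7. Tfdp2 stood at 5.08 CPM per kb in CHIR99021 and 7.52 CPM per kb in control. E2f7 was the lowest, at 3.72 CPM per kb in CHIR99021 and 3.31 CPM per kb in control. The lengths sum every annotated exon of a gene, which places genes with long alternative ends, such as Tfdp2 with 14029 bases, lower than a single transcript would.

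**Figure D4:**
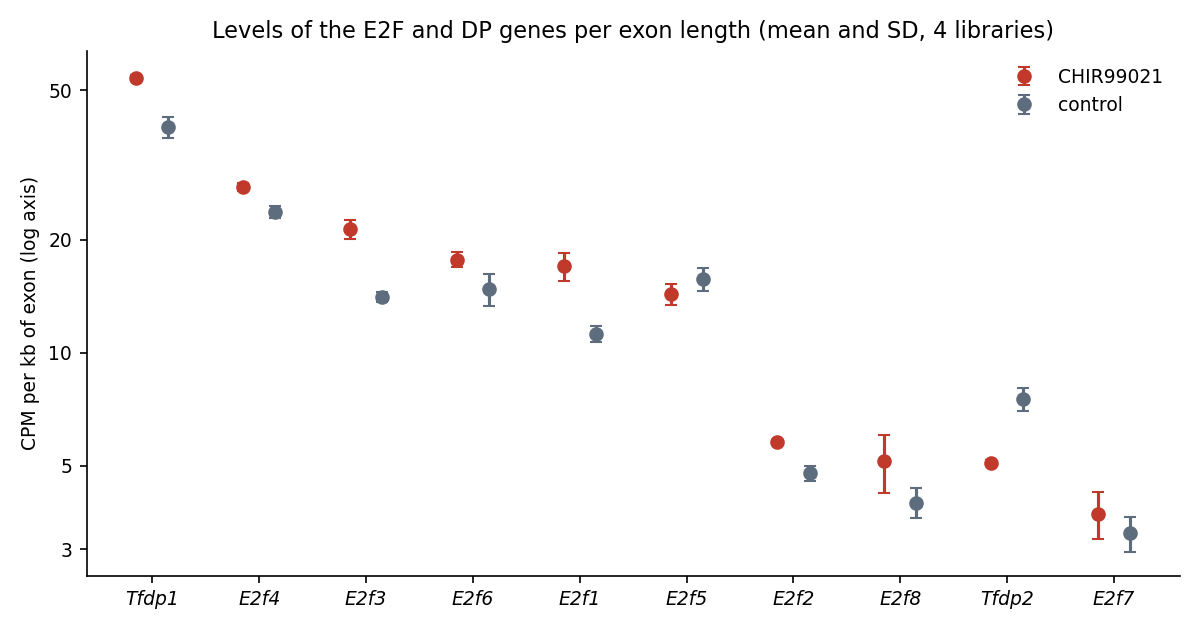
Mean level in CPM per kb of annotated exon (vertical log axis) with SD over 4 libraries, for CHIR99021 (left, red) and control (right, grey), with the members ordered by their level in CHIR99021. Tfdp1 is the highest and E2f7 the lowest in both groups, and E2f5 and Tfdp2 are the members below their control.

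The numbered replicates were also compared one by one. For libraries of the same number, the log2 ratio of CPM was taken, CHIR99021 over control and without the added 1. It was 0.47 to 0.65 for E2f1, 0.43 to 0.73 for E2f3, 0.34 to 0.48 for Tfdp1 and -0.67 to -0.45 for Tfdp2. E2f2, E2f4 and E2f6 were also above their control in every number. E2f7 was above it in numbers 1, 3 and 4, and in number 2 had 27.5 CPM in CHIR99021 and 27.4 CPM in control. E2f8 was 0.45, 0.58 and 0.41 higher in numbers 1, 3 and 4 and -0.02 in number 2. E2f5 was below its control in numbers 1, 2 and 3, and in number 4 had 25.3 CPM in CHIR99021 and 25.2 CPM in control. A single number holds 1 library a group and has no test of its own. Only E2f1, E2f3, Tfdp1 and Tfdp2 passed both within replicates 1 and 4 and within replicates 2 and 3. These pairs of replicates differ in the number of genes with a read, 22838 to 24249 in replicates 1 and 4 and 20301 to 20698 in replicates 2 and 3.

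No member passed between the libraries labelled M and F (0 of 10 in limma, edgeR and DESeq2, against 0.0981% of all genes tested in limma). At an unadjusted p under 0.05 there were 2, E2f7 and E2f8, both lower in M, against 4.27% of all genes tested. E2f8 averaged 4.55 in M and 4.80 in F on the log2(CPM + 1) scale, a difference of -0.25 (95% confidence interval -0.47 to -0.04, limma adjusted p = 1.00). The difference in response between the labels was not past the test for any member (0 of 10 in limma, edgeR and DESeq2, and 0 of 10 at an unadjusted p under 0.05 in limma). Over all genes 0% passed in limma, with 1.27% at an unadjusted p under 0.05, and the count of genes was 0 in edgeR and 3 in DESeq2. E2f8 responded by 0.19 in M and 0.49 in F, a difference of -0.30 with an interval of -0.72 to 0.11. Each label held 2 libraries per treatment, from replicate numbers 2 and 4 for M and 1 and 3 for F. The fit between the labels counted all 8 libraries as separate, although libraries that share a number resemble each other. Its interval for E2f8 and its unadjusted p-values may therefore overstate a difference between the labels.

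Upstream of the E2F factors, most genes of the kinases and cyclins that release them from pocket proteins rose, and most of their inhibitors that passed fell. Of 8 genes for G1 cyclins and their kinases, 6 were higher and 0 lower by limma, against 12.3% and 21.4% of all genes tested. Their median log2 fold change was 0.44. Ccnd3, cyclin D3, was the 1 gene below control at an unadjusted p under 0.05 (-0.18, limma adjusted p = 0.0538), and passed with the replicate number as a block, without control replicate 1 and without CHIR99021 replicate 3. Lower genes also numbered 0 in edgeR and DESeq2. Ccnd1, cyclin D1, averaged 602 ± 60.7 CPM in CHIR99021 and 293 ± 19.0 CPM in control (SD, n = 4 each; log2 fold change 1.03). Cdk6, a kinase partner of cyclin D, changed by 0.80, and the cyclin E genes Ccne2 and Ccne1 by 0.61 and 0.50. Among 6 measured inhibitor genes, 3 were lower and 1 higher, against 21.4% and 12.3% of all genes tested, with a median of -0.34. Cdkn1b averaged 87.2 ± 3.03 CPM in CHIR99021 and 126 ± 7.86 CPM in control (SD, n = 4 each; log2 fold change -0.53), and Cdkn1c, of the same family, changed by -0.57. Cdkn2c, an inhibitor of CDK4 and CDK6, was low, at 3.32 CPM in CHIR99021 and 4.75 CPM in control, and its call was lost under TMM scaling (limma adjusted p = 0.0583) and without control replicate 3 or 4 or any CHIR99021 library. Cdkn1a, a p53 target, went the other way with 0.78.

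The pocket protein genes fell, apart from Rbl1. Rbl2, the partner of E2F4 and E2F5 in cells outside the cycle, averaged 17.4 CPM in CHIR99021 and 33.9 CPM in control. The groups were at least 14.5 CPM apart. This was a log2 fold change of -0.93 with a standard error of 0.070 (limma adjusted p = 7.22e-06). Rb1 averaged 23.9 ± 1.32 CPM in CHIR99021 and 32.9 ± 5.27 CPM in control (SD, n = 4 each; log2 fold change -0.43, limma adjusted p = 0.00911). Rbl1, itself an E2F target, averaged 45.6 CPM in CHIR99021 and 40.8 CPM in control, and passed under TMM scaling (0.22, limma adjusted p = 0.0242) but not on the CPM as deposited (0.16, limma adjusted p = 0.0869). Without control replicate 3 it passed as well (limma adjusted p = 0.0315). Mybl2, which turns the MuvB complex from repression to activation, rose by 0.51. Within replicates 2 and 3 alone, neither Mybl2 (0.45, limma adjusted p = 0.0669) nor Rb1 (-0.40, limma adjusted p = 0.127) passed. Over the 9 genes for pocket proteins and the MuvB complex, 1 was higher and 2 lower, with a median of -0.04. Both shares are near the 12.3% and 21.4% of all genes tested.

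Genes for DNA replication mostly rose, as the activators did, while genes for mitosis did not. Whether the E2F factors had a part in this was not tested. Of 42 S phase genes that are known E2F targets, 26 were higher and 1 lower by limma, against 12.3% and 21.4% of all genes tested. Their median log2 fold change was 0.32. Ccne1 and Ccne2 belong to this list as well. The 4 with the smallest p were Cdc25a, a phosphatase that activates CDK2 (141 ± 5.10 CPM in CHIR99021 and 92.3 ± 2.02 CPM in control, SD, n = 4 each; log2 fold change 0.60), Chaf1b, a subunit of the factor that loads histones onto new DNA (0.72), and the origin licensing genes Cdc6 (0.77) and Cdt1 (0.66). Members of the list with no call included Ccna2 (-0.09) and Tk1 (-0.13). Within replicates 2 and 3 alone, 15 were higher, where 611 of the 14264 genes tested were.

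Of 20 genes for G2 and mitosis, 0 were higher and 5 lower by limma, with a median of -0.18. In this fit the share lower is near the 21.4% of all genes tested. Higher genes numbered 0 at an unadjusted p under 0.05 and in edgeR and DESeq2 as well. Nusap1, a spindle protein, averaged 33.7 ± 4.14 CPM in CHIR99021 and 54.5 ± 5.32 CPM in control (SD, n = 4 each; log2 fold change -0.68). Ccnb2, cyclin B2, changed by -0.41, Cenpf, a kinetochore protein, by -0.34, and Cdc20, an activator of the anaphase-promoting complex, by -0.30. With the replicate number as a block 10 were lower, where 3718 of the 14264 genes tested were. With sex as covariate 8 were lower, where 2961 of all genes were. In both of these fits the share of the list was above that of all genes. The count was 3 under TMM scaling, where 2360 of all genes were lower, and 3 without control replicate 1, where 2625 were. Cenpf lost its call under TMM scaling (limma adjusted p = 0.0699) and without control replicate 1, 2 or 4.

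**Figure D5:**
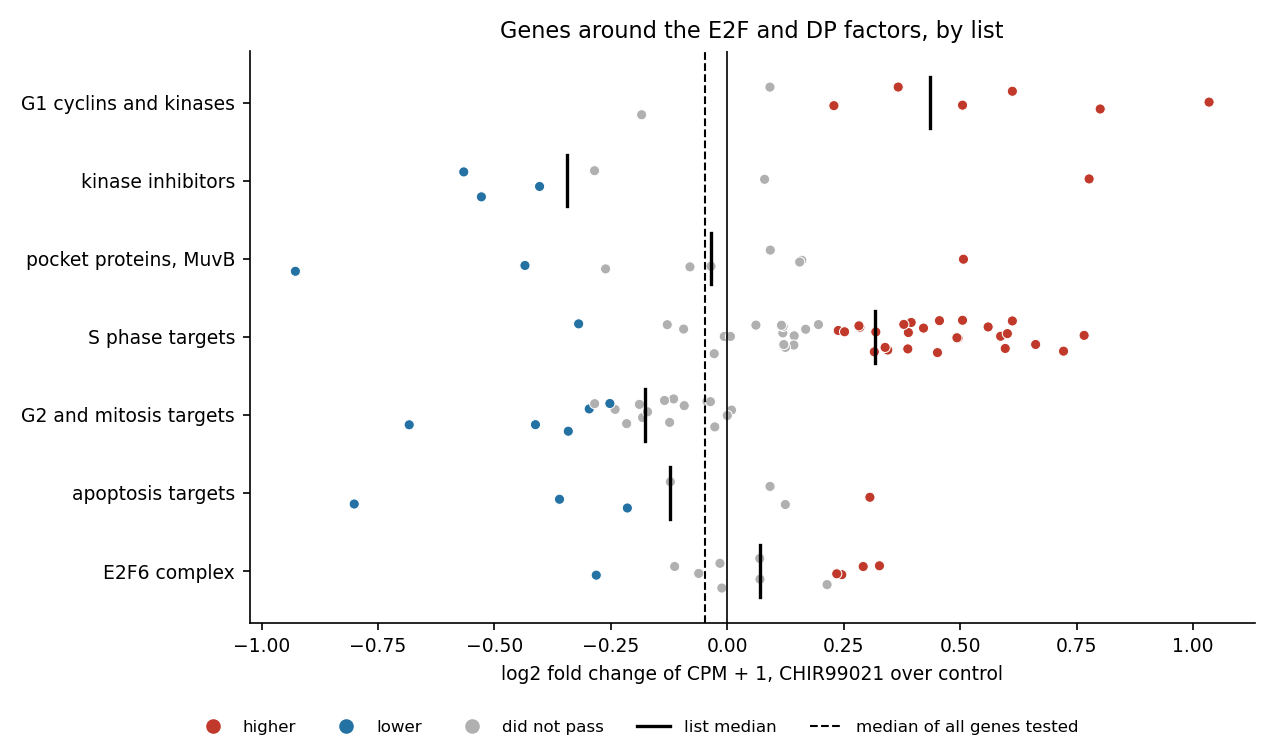
Log2 fold change of CPM + 1, CHIR99021 over control (horizontal axis), of the genes tested in 7 lists around the E2F and DP factors, 1 point a gene, spread vertically for sight only. Thick bars are list medians and the dashed line the median of all genes tested (-0.05). The medians are 0.44 for G1 cyclins and kinases, 0.32 for S phase targets and -0.18 for G2 and mitosis targets.

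The apoptosis genes that E2F1 can activate showed no common direction. Of 7 measured, 1 was higher and 3 lower, against 12.3% and 21.4% of all genes tested, with a median of -0.12. Bbc3, which encodes the killer protein PUMA, averaged 6.45 ± 0.958 CPM in CHIR99021 and 12.0 ± 1.84 CPM in control (SD, n = 4 each; log2 fold change -0.80). Bcl2l11, which encodes BIM, changed by -0.36 and Apaf1, the core of the apoptosome, by -0.21. Casp8ap2, which is also needed for histone gene expression, changed by 0.31. Apaf1 no longer passed under TMM scaling (-0.16, limma adjusted p = 0.0705), nor without control replicate 2 or CHIR99021 replicate 4.

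Of 12 genes for the complex of E2F6, 4 were higher and 1 lower, against 12.3% and 21.4% of all genes tested. Their median was 0.07. Without control replicate 4 or CHIR99021 replicate 3, 2 were higher. Wdr5, a shared subunit of several chromatin complexes, changed by 0.29, and Max, the DNA-binding partner of MGA, by 0.23. Pcgf6, the subunit that sets this Polycomb complex apart, changed by 0.25, and the call was lost when control replicate 2 or 4 or CHIR99021 replicate 1, 3 or 4 was left out. Ring1, a ubiquitin ligase subunit, changed by -0.28 and was not called under TMM scaling (limma adjusted p = 0.0552), nor without control replicate 4 or CHIR99021 replicate 1 or 4. Of 7 germline genes that E2F6 represses in other tissues, Stag3, a meiotic cohesin subunit, alone reached the minimum level. It averaged 0.760 ± 0.400 CPM in CHIR99021 and 1.44 ± 0.366 CPM in control (SD, n = 4 each), and did not pass (log2 fold change -0.48, limma adjusted p = 0.0733). It reached the minimum only through its control level, which favours a lower value in CHIR99021. The calls it gained with the replicate number as a block (limma adjusted p = 0.0368), without control replicate 2 and without CHIR99021 replicate 4 are therefore not read as a fall.

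Among 6 genes for the ubiquitin ligases that act on E2F proteins, 2 were higher and 2 lower, against 12.3% and 21.4% of all genes tested. Skp1a and Skp2, subunits of the SCF ligase that degrades E2F1, changed by 0.70 and 0.33. Cdc20 was lower, as above, and Fzr1, the other activator of the anaphase-promoting complex, changed by -0.22 and did not pass under TMM scaling (limma adjusted p = 0.0763), nor without CHIR99021 replicate 3 or 4. Of 5 genes with which E2F4 and E2F5 build the ciliated cell programme, Foxj1 alone reached the minimum level. It averaged 1.61 ± 0.303 CPM in CHIR99021 and 2.37 ± 0.185 CPM in control (SD, n = 4 each; log2 fold change -0.37, limma adjusted p = 0.0451). It lost its call under TMM scaling (limma adjusted p = 0.0666) and when any library but CHIR99021 replicate 1 was left out.

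Over the 8 libraries, the genes whose log2(CPM + 1) ran closest to a member were found for each member that passed, 3 genes a member. Nearest to Tfdp1 were Ran, a nuclear transport GTPase (Pearson r = 0.996), Ung, the uracil-DNA glycosylase of replication (0.996), and C1qbp, a mitochondrial protein (0.994). Nearest to E2f3 were Ptprg (0.996), Tfrc, the transferrin receptor (0.994), and Ddx21, a helicase of ribosome production (0.993). Nearest to E2f1 were Eef1d (0.985), G3bp1 (0.984) and Zdhhc3 (0.982), and to E2f2 Hars (0.993), Sdc1 (0.991) and Rapgef1 (0.989). E2f4 ran closest to Scap (0.990), Tnk2 (0.982) and Cep170b (0.980). E2f6 ran closest to Gmnn, the licensing inhibitor geminin (0.987), Uba2 (0.982) and Gm17638 (0.978), and E2f8 to Trip13 (0.993), Zmat3 (0.982) and Dock1 (0.974). Tfdp2 ran with genes that fell, Golga5 (0.994), Crebrf (0.993) and Bbs2 (0.992). Crebrf, which encodes a regulator of the stress factor CREB3, averaged 6.91 CPM in CHIR99021 and 33.7 CPM in control. These correlations are descriptions over 8 libraries in 2 groups, and the libraries of each group share its treatment.

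Markers of the cell types in the explant also moved with the treatment. Those of cochlear duct epithelium summed to 3718 to 4045 CPM in CHIR99021 and 3555 to 3715 CPM in control, with 2 of 9 higher and 3 lower. Jag1 (385 CPM in CHIR99021 and 162 CPM in control) and Fgf10 were higher, and Sox2, Gata3 and Otx2 lower. Most of the sum was Oc90, with no call, at 2566 CPM in CHIR99021 and 2482 CPM in control. Periotic mesenchyme markers summed to 766 to 787 CPM in CHIR99021 and 632 to 665 CPM in control, with 2 of 5 higher and 1 lower. Prrx1 (308 CPM in CHIR99021 and 180 CPM in control) and Twist1 were higher. Pou3f4 was lower (184 CPM in CHIR99021 and 218 CPM in control). A sum led by single genes does not measure how many cells of a type were present. Cartilage markers summed to 3542 to 4031 CPM in CHIR99021 and 4494 to 5828 CPM in control, with 3 of 5 lower. Glial markers summed to 201 to 223 CPM in CHIR99021 and 243 to 279 CPM in control, and neuronal markers to 42.8 to 66.2 CPM in CHIR99021 and 66.6 to 91.6 CPM in control, with 3 of 4 and 2 of 4 measured lower. The sums of hair cell, endothelial, blood, macrophage and melanocyte markers overlapped between the groups. No listed marker was at 0 throughout. The counts of markers stand beside 12.3% higher and 21.4% lower of all genes tested. The part of these shifts in the responses of the E2F and DP genes was not tested.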

How the data were processed

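Polyadenylated, strand-specific libraries from 8 cochlear explant samples were sequenced by the authors as 75 bp paired-end fragments and mapped to GRCm38 (Ensembl release 91) with HISAT2. The counter, and whether it used strand, are not given in the sources used here. The deposited table holds CPM per gene and library, scaled by the authors to the reads they assigned. It also holds the authors' own fold changes, p-values and false discovery rates, which were not used.

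Samples were grouped from the labels. Each CPM value was a whole multiple of the CPM of 1 read (0.0112 to 0.0154) within 0.001 read for 100% of values, so reads were recovered for count tests, and counting error at the members' levels is small. Of the gene identifiers, 99.5% (42545) were found in GENCODE M21, which gave coordinates on GRCm38 and exon lengths. Promoter sequence came from RefSeq on GRCm38.p6.

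The treatment was tested in R 4.3.3 with limma 3.58.1 (intensity trend, log2 of CPM + 1). Genes had to average at least 1 CPM, with Benjamini-Hochberg adjustment across the 14264 genes. The M and F labels were compared with treatment as covariate, and their interaction was fitted. Alternatives were pseudocounts of 0.1 and 0.5, no filter, TMM scaling, edgeR 4.0.16 (quasi-likelihood; 2414 genes higher and 2340 lower) and DESeq2 1.42.0 on recovered reads, edgeR with DESeq2 size factors, a replicate block, sex as covariate, replicates 1 and 4 or 2 and 3 alone, and leaving out each library. The scripts were tested on simulated data, with far fewer changed genes than passed for treatment here. There limma recovered 4% of treatment changes of 0.25 on the log2 scale, 38% of 0.5 and 84% of 1. For the interaction it recovered 0% of changes of 0.5 and 32% of 1. For treatment, the smaller number of changed genes made the adjusted threshold stricter than it was in the data. The simulated shares for treatment therefore do not give the recovery in these data. Small changes can still go without a call. Figures were drawn with matplotlib.

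Deviations from the group means were compared across genes between a CHIR99021 and a control library. Those that share a number had r = 0.514, 0.247, 0.352 and 0.337, and those with other numbers at most 0.168, so the numbers pair the samples. The labels state no pairing, and the reported fit has no block.

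The gene lists were written from general knowledge. Members, lists and tests were chosen with earlier results of these data known. Named genes were the members, the 4 genes of each pathway list with the smallest p (lists of 5 or fewer tested genes in full), Axin2 and Nkd1, genes overlapping a member, and the 3 genes most correlated with each member that passed. Ccna2, Tk1, Ccnd3 and the single marker genes were named after their values were seen. Lgr5, and the S phase gene counted as lower, are not reported here.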

Additional observations from a re-analysis of the deposited data

Results flagged for a closer look

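Within groups of 4 libraries, the lowest or highest was compared with the others by Dixon's ratio at its 95% critical value for 47 named genes, which makes 94 groups, of which chance alone would mark about 5%. It marked 5. Among the members it marked E2f6 in CHIR99021 replicate 4, the lowest of its group at 93.4 CPM where the others had 102 to 103 CPM. Ccnd1 in CHIR99021 replicate 2 was low, at 511 CPM against 622 to 637 CPM in the others. Ccnd1 in control replicate 3 was high, at 321 CPM against 282 to 284 CPM. Cdk6 in control replicate 1 was high, at 51.4 CPM against 43.3 to 44.2 CPM. Stag3 in control replicate 2 was low, at 0.887 CPM against 1.59 to 1.64 CPM. E2f6 kept its call when CHIR99021 replicate 4 was left out.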

How the results depend on the processing

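The direction of all 10 members was the same under each of the 19 alternatives, and E2f1, E2f3, Tfdp1 and Tfdp2 passed in all of them. E2f5 and E2f7 passed in none. E2f2 and E2f4 passed in 17, E2f6 in 18 and E2f8 in 10. Of the members, 4 were higher within replicates 1 and 4 alone and 3 within replicates 2 and 3 alone, with 2 libraries a group. With single libraries left out, 6 to 7 members were higher and 1 lower. Over all genes, 1753 were higher and 3052 lower. The counts were 2671 and 2623 with DESeq2, 1154 and 2145 within replicates 1 and 4, 611 and 1057 within replicates 2 and 3, and 1370 to 1723 and 2492 to 2887 with single libraries left out. The share of passing genes that were higher was 36.5% on the CPM as deposited and 50.8% under TMM scaling (2437 higher and 2360 lower), which moved the median of all genes by 0.06 on the log2 scale. With the replicate number as a block, 2190 genes were higher and 3718 lower, and 7 members were higher and 1 lower, as without it. Beyond the calls of Ccnd3, Stag3 and the mitosis list given with the results, the block changed no other call among the members and the genes named outside the marker lists. With no filter on low values, 26831 genes were tested, 1424 were higher and 2588 lower. For the M and F labels and their interaction, 0 members passed under any alternative. Depth did not limit the members, which had at least 1435 reads in each library.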
